A study of Mus musculus with 12 samples.

Results

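The genes described here encode the subunits of the mitochondrial respiratory chain and ATP synthase that are made from the nuclear genome. They were taken by name: protein-coding genes whose symbol starts with Nduf (without the Ndufaf assembly factors), Uqcr, Atp5 or Cox4 to Cox8, and Sdha, Sdhb, Sdhc and Sdhd. The rule found 86 of the 52336 rows of the table, for 85 symbols, since Atp5o has 2 identifiers. By complex there were 38 rows for complex I, 4 for complex II, 8 for complex III, 18 for complex IV and 18 for complex V. Of these, 83 passed the filter on low values (a mean normalized count of at least 10 over all libraries) and were tested. The 3 others were Cox8c, an isoform known from testis, and the second Atp5o identifier (ENSMUSG00000116933), both listed at 0 in all 12 libraries, and Cox7b2, with a highest value of 9.05. By its names the rule leaves out Cyc1 of complex III, the carrier Cycs, Usmg5 of complex V and Atpif1, the inhibitor of ATP synthase. It counts Ndufa4 with complex I, although the protein is known as a subunit of complex IV.

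Complex I (NADH dehydrogenase) and complex II (succinate dehydrogenase) pass electrons to ubiquinone, complex III passes them on to cytochrome c, and complex IV (cytochrome c oxidase) passes them to oxygen. Complexes I, III and IV pump protons as they do so, and complex V (ATP synthase) uses the proton gradient to make ATP. Heart muscle is dense in mitochondria, and the days after birth are known as the time when it turns from glycolysis to respiration. Most subunits come from nuclear genes, while 13 come from the mitochondrial genome, so each complex other than complex II is made from both.

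RNA had been sequenced from cardiomyocytes of wild type mouse pups in 12 libraries, 3 in each of 4 groups. From postnatal day 0 to 1 the pups had daily injections of N-acetylcysteine (NAC, an antioxidant and a source of cysteine), at a dose called high and buffered with 25 mM HEPES and 140 mM NaCl, or of saline. Surgery on day 2 either blocked the left anterior descending artery, which starves part of the ventricle of blood (MI, for myocardial infarction), or was a sham, and on day 3 the ventricles were pooled, digested and put through a kit for newborn cardiomyocytes. The sham groups are called saline sham and NAC sham and the infarct groups saline MI and NAC MI, and 3 values of a group are given in the order of its libraries 1, 2 and 3. The series text names whole ventricles and the sample labels the left ventricle. Which animals or litters a library holds is not stated, so what the p-values weigh is only how these libraries differ among themselves, which may be technical. Fewer cells of a type and less RNA per cell cannot be told apart in such pooled samples.

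The libraries held 14353842 to 25118341 reads, and the 86 rows took 1.24% (NAC sham 2) to 2.49% (NAC sham 3) of them. Cardiac markers were present in every library: all 20 tested cardiomyocyte markers had reads, with a summed normalized count from 293323 (NAC sham 2) to 834496 (in NAC MI). The isolates also held other cells. The summed count ran from 44074 to 141405 for 16 endothelial markers and from 116847 to 279431 for 16 fibroblast markers. For 9 red cell markers it ran from 189138 to 1398120. In saline MI the red cell sums (877401 to 1382980) lay above those of the cardiomyocyte markers (548173 to 764736). Sample titles carry prefixes of unstated meaning, and each prefix occurs with a single type of surgery, so prefix and surgery cannot be told apart. In 3 libraries marker lists stood apart from their groups: macrophage markers summed to 29619 in NAC sham 2 (1763 and 2338 in the others of its group) and to 1546 in NAC MI 2 (14424 and 17043), and ribosomal protein genes were high in saline sham 3. Medians and calls are also given without some or all of these libraries. Levels, overlap of groups and group differences of isoform ratios are given with all 12 libraries only.

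The subunits were found at levels that differed by complex. Per kb of mRNA, the median normalized count was 7878 for the 17 tested genes of complex V, 5963 for the 8 of complex III, 5259 for the 16 of complex IV, 3570 for the 4 of complex II and 2050 for the 38 of complex I. The highest level per kb was that of Atp5b, the catalytic beta subunit of ATP synthase (24281). Atp5h, subunit d of the stalk that holds the catalytic head still, stood at 18366 per kb, and Atp5a1, the alpha subunit, at 16131 per kb. Atp5b and Atp5a1 together took 23.4% of all reads of these genes. In the other complexes the highest levels per kb were those of Ndufa4 (10719), Sdhb, the iron-sulfur subunit of complex II (4831), Uqcrq, a small subunit of complex III (12200), and Cox6c of complex IV (14712).

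The lowest levels per kb belonged to genes of several kinds. Atp5s, a coupling factor, stood at 117 per kb, and Ndufb2, an accessory subunit of the membrane arm of complex I, at 123 per kb. Cox4i2 (169 per kb), Cox6b2 (286 per kb) and Ndufa4l2 (318 per kb) are isoforms known from other settings: Cox4i2 and Ndufa4l2 are induced by low oxygen, and Cox6b2 is known from testis. Ndufb2 and Atp5o (338 per kb, the first identifier) each overlap another annotated gene on the same strand, in the case of Atp5o its own second identifier. Whether reads that fit 2 genes were dropped was not tested. Of the 86 rows, 25 have an annotated copy elsewhere with at least 95% identity over at least 150 bases, and 27 have such a copy or a gene that overlaps on the same strand, so their levels are uncertain. Atp5l has 9 such copies, with 1624 reads assigned to them against 5142 to Atp5l, and Cox7a2l has 1, with 9351 reads against 42231.

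**Figure D1:**
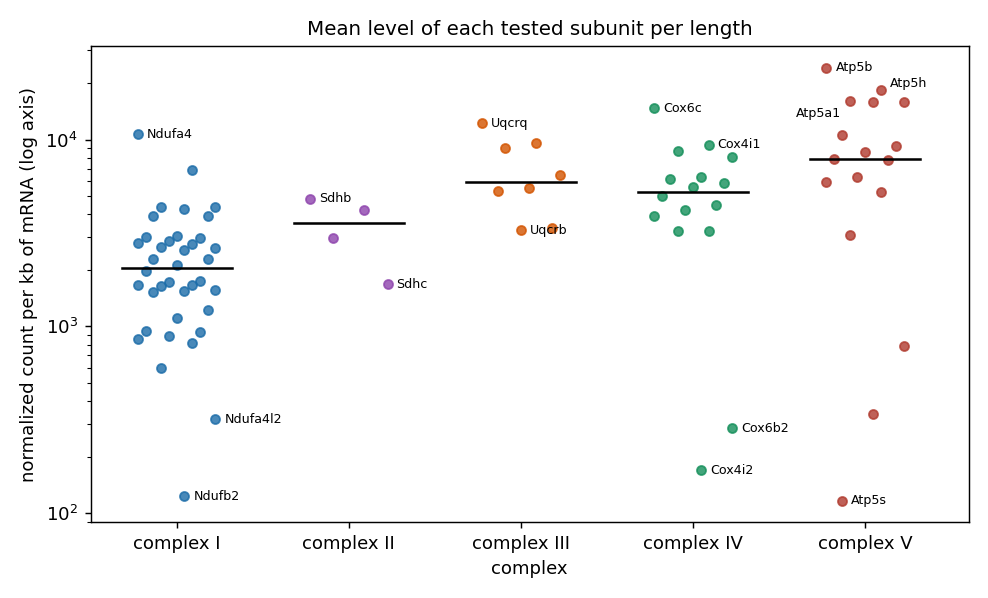
Each point is a tested gene, placed by complex, with its mean normalized count over 12 libraries per kb of mRNA on a log axis; black lines are the medians of the complexes. The median runs from 2050 in complex I to 7878 in complex V, and Ndufb2, Cox4i2 and Atp5s are the lowest genes of complexes I, IV and V.

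The catalytic core subunits shared their lowest library, NAC sham 2. In complex I they include the subunits that hold the flavin and the iron-sulfur clusters. Over the 12 libraries Ndufv1, which binds the flavin, ran from 2362 to 6416 highest in saline sham 3. Ndufv2 (2064 to 7426), Ndufs3 (991 to 3443), Ndufs7 (1625 to 5140) and Ndufs8 (1500 to 3584) had their lowest and highest values in the same 2 libraries. Ndufs1, the largest iron-sulfur subunit of complex I, did not: it was lowest in NAC sham 2 (2797) but highest in NAC sham 1 (5872). In complex II the iron-sulfur subunit Sdhb (3078 to 9533) and the membrane anchors Sdhc (2708 to 8810) and Sdhd (2298 to 8541) again had the same lowest and highest libraries. Sdha, the flavoprotein of complex II, ran from 5195 in NAC sham 2 to 11567 in NAC sham 1 and stood at 6654 in saline sham 3.

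In complex III the Rieske iron-sulfur protein Uqcrfs1 stood at 8382, 5893 and 12760 in saline sham, at 7454, 3404 and 6709 in NAC sham, at 8589, 9496 and 6657 in saline MI and at 7121, 7488 and 5636 in NAC MI. Its groups overlap in every comparison. The core proteins Uqcrc1 (5720 to 13698) and Uqcrc2 (3995 to 8384) varied less. In complex V, Atp5b ran from 26034 to 59287, Atp5a1 from 22431 to 48650 and the rotor subunit Atp5c1 from 5093 to 16880, each lowest in NAC sham 2. Outside the name rule, Atpif1 had a mean of 677 ± 479 with saline and 858 ± 216 with NAC after sham, and of 766 ± 325 with saline and 924 ± 263 with NAC after MI (SD, n = 3 each), so its groups differ by less than the widest of their spreads.

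Complex IV and its neighbours are built with alternative isoforms, and those of heart and skeletal muscle appear as the heart matures. Cox6a2, Cox7a1 and Cox8b are the heart and muscle isoforms, and Cox6a1, Cox7a2 and Cox8a the ones found in all tissues. Of these 6 genes, 5 have an entry in RefSeq's table of promoters (build GRCm38.p6), and the 200 bases before RefSeq's start of transcription are shown because the muscle and ubiquitous genes differ in them. Capitals mark matches, on either strand, to GCGCA and GCGC with 1 base between them (bound by NRF1, an activator of respiratory genes), CCGGAAG (bound by ETS factors such as GABP), AAGGTCA (bound by ERR receptors), CAGCTG (an E-box), CTA and TAG with 4 bases between them (bound by MEF2) or TATAAA (forward strand only).
Cox6a1, GRCm38.p6 chr5:115348959-115349158, minus strand: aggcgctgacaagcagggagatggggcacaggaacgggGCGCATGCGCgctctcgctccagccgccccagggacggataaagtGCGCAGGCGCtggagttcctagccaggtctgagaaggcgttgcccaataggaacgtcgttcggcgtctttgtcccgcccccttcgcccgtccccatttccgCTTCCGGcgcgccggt
Cox7a2, GRCm38.p6 chr9:79759854-79760053, minus strand: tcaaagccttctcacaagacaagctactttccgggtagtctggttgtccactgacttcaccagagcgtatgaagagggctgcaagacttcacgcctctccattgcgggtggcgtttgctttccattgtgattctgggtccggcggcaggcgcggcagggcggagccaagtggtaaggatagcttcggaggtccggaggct
Cox8a, GRCm38.p6 chr19:7217617-7217816, minus strand: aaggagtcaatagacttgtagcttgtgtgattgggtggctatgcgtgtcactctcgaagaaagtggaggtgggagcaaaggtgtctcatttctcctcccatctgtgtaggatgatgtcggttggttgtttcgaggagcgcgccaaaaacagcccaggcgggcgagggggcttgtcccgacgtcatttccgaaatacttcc
Cox7a1, GRCm38.p6 chr7:30183971-30184170, plus strand: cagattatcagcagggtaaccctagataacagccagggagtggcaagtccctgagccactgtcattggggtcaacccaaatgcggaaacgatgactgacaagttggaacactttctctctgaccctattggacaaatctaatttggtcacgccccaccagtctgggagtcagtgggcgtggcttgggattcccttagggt
Cox8b, GRCm38.p6 chr7:140900447-140900646, minus strand: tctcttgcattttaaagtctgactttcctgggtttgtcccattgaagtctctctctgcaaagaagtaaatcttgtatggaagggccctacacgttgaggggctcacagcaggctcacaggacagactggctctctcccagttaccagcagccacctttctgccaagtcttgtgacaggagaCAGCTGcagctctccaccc
The window of Cox6a1 held 2 matches for NRF1, which start 162 and 117 bases before the start, and 1 for ETS, 16 bases before it. That of Cox8b held a single match, the E-box that starts 19 bases before the start, and the other 3 windows held none. The windows of the ubiquitous genes Cox6a1, Cox7a2 and Cox8a contain 23, 12 and 11 CpG dinucleotides, and those of the muscle genes Cox7a1 and Cox8b contain 4 and 1. A match is a description of these letters only.

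Promoter windows were found for 67 of the 85 symbols. In the 250 bases before the start, the NRF1 letters occur in 12 of 67 (17.9%, against 5.30% of 17492 promoters of protein-coding genes) and the ETS letters in 11 of 67 (16.4% against 9.13%). The ERR letters occur in 5 (7.46% against 3.58%), the E-box in 6 (8.96% against 11.6%), the MEF2 letters in 1 (1.49% against 3.05%) and TATAAA in 2 (2.99% against 8.39%). The 12 with the NRF1 letters include Sdha, Sdhd, Ndufs6, Atp5k and Atp5g2. The median number of CpG dinucleotides is 14 in these windows and 10 in all promoters.

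The muscle isoforms were strongly expressed at this age, next to their ubiquitous partners. Per kb, the ratio of Cox6a2 to Cox6a1 had a median of 0.888 over the 12 libraries, that of Cox8b to Cox8a 0.769 and that of Cox7a1 to Cox7a2 0.513. Cox6a2 (ENSMUSG00000030785, chromosome 7, 128205435 to 128206387 on GRCm38, as for all positions of genes given here) stood at 2631, 1412 and 4595 in saline sham, at 4629, 1491 and 5536 in NAC sham, at 4935, 4413 and 3535 in saline MI and at 3497, 5881 and 2784 in NAC MI. Cox6a1 stood at 2715, 2493 and 4162, at 3573, 2743 and 3505, at 4601, 4002 and 3392, and at 3788, 5831 and 2398 in the same groups. Their log2 ratio was lowest in saline sham 2 (-0.82) and NAC sham 2 (-0.88) and lay between -0.12 and 0.66 in the other 10 libraries. The same 2 libraries had the lowest ratio of Cox7a1 to Cox7a2 (-2.38 and -2.53) and of Cox8b to Cox8a (-2.01 and -2.42). The cardiomyocyte markers were also lowest in these 2 libraries, with a mean log2 level of 13.23 in saline sham 2 and 12.77 in NAC sham 2 against 13.71 to 14.41 in the others. The part of cell makeup in the isoform balance was not tested.

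Across groups, 1 of the muscle pairs separated. Cox7a1 stood at 2441, 1830 and 1259 in saline MI and at 1057, 1233 and 976 in NAC MI. The log2 ratio of Cox7a1 to Cox7a2 was -0.91, -1.04 and -1.61 in saline MI and -1.69, -1.82 and -2.14 in NAC MI, a difference of means of -0.70 with groups that do not overlap. The exact permutation test gives p = 0.1, two-sided, the smallest that 3 libraries against 3 allow, and adjusted p = 0.914 over the 24 isoform comparisons (6 pairs in 4 comparisons). Saline MI 1 and 2 share a title prefix with NAC MI 3, and saline MI 3 shares another with NAC MI 1 and 2. Within the first prefix the ratio was -0.91 and -1.04 with saline and -2.14 with NAC. Within the second it was -1.61 with saline and -1.69 and -1.82 with NAC. The part of the prefix in this difference was not tested. The other pair that separated was that of Cox4i2 and Cox4i1, which is ubiquitous: its log2 ratio was lower in saline MI than in saline sham by a difference of means of -0.98, again with exact permutation p = 0.1. The genes of subunit c, which forms the rotor ring of ATP synthase, encode the same mature protein. Atp5g3 took a median of 47.9% of their normalized count over the libraries, Atp5g1 40.2% and Atp5g2 11.3%, and the share of Atp5g1 ran from 37.2% to 50.3%.

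**Figure D2:**
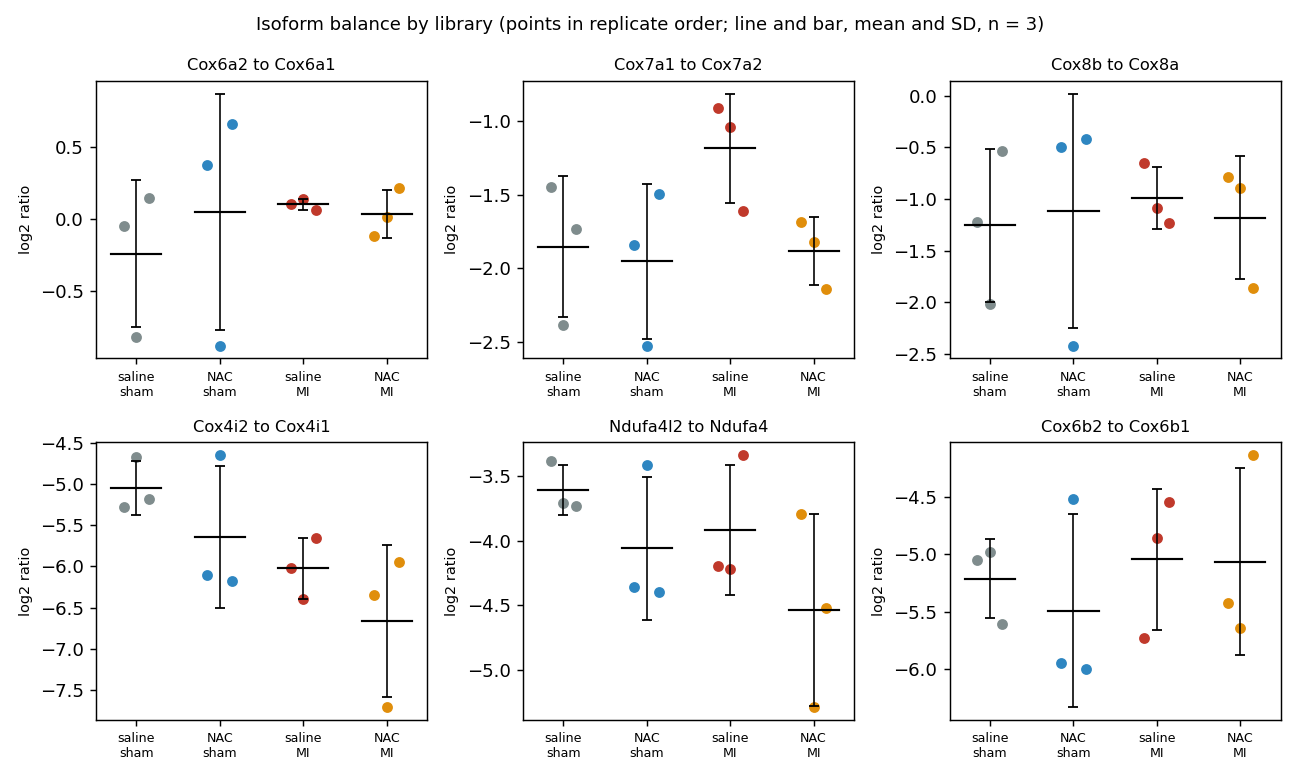
Log2 ratios of the normalized counts of 6 isoform pairs, by group. Points are libraries, the line is the mean and the bar the SD of 3. Saline sham 2 and NAC sham 2 are the lowest libraries for the 3 muscle pairs in the upper row, and the groups overlap in all comparisons except those of Cox7a1 after MI and of Cox4i2 after saline.

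The subunits varied between libraries as a block. The mean log2 level of the 83 tested genes ran from 10.19 in NAC sham 2 to 11.78 in saline sham 3, a difference of 1.59, or 3.0-fold. The first principal component of the genes over libraries held 77.5% of their variance, against 26.8% for all genes tested. NAC sham 2 was the lowest of the 12 libraries for 68 of 83 genes. Saline sham 3 was the highest for 41, and saline MI 1 for 24. Saline sham 2 was among the 3 lowest libraries for 76 genes. The block went with the title prefix: saline sham 1, saline sham 2 and NAC sham 2 share a prefix, and they had the 3 lowest mean levels of the 12 libraries. Saline sham 3 has a prefix of its own, and NAC sham 1 and 3 have none. The part of what the prefix stands for was not tested.

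The spread within groups was as wide as that between them. The mean log2 level was 11.01, 10.52 and 11.78 with saline and 11.35, 10.19 and 11.32 with NAC after sham, and 11.66, 11.56 and 11.09 with saline and 11.20, 11.40 and 11.12 with NAC after MI, with a pooled SD within groups of 0.488. NAC sham holds a library far below the others and saline sham one well above the others, and every MI library lies within the range of the sham libraries. The median SD within groups was 0.52 for these genes and 0.38 for all genes tested, on the log2 scale. The widest were Cox8b (1.13), Atp5k, subunit e of ATP synthase (1.12), Uqcr11 of complex III (0.87) and Cox7a1 (0.81), and the narrowest were Uqcrc2 (0.33), Ndufs1 (0.33) and Atp5a1 (0.36). Cox8b, for example, stood at 1257, 522 and 2851 in saline sham and at 2062, 389 and 2330 in NAC sham.

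**Figure D3:**
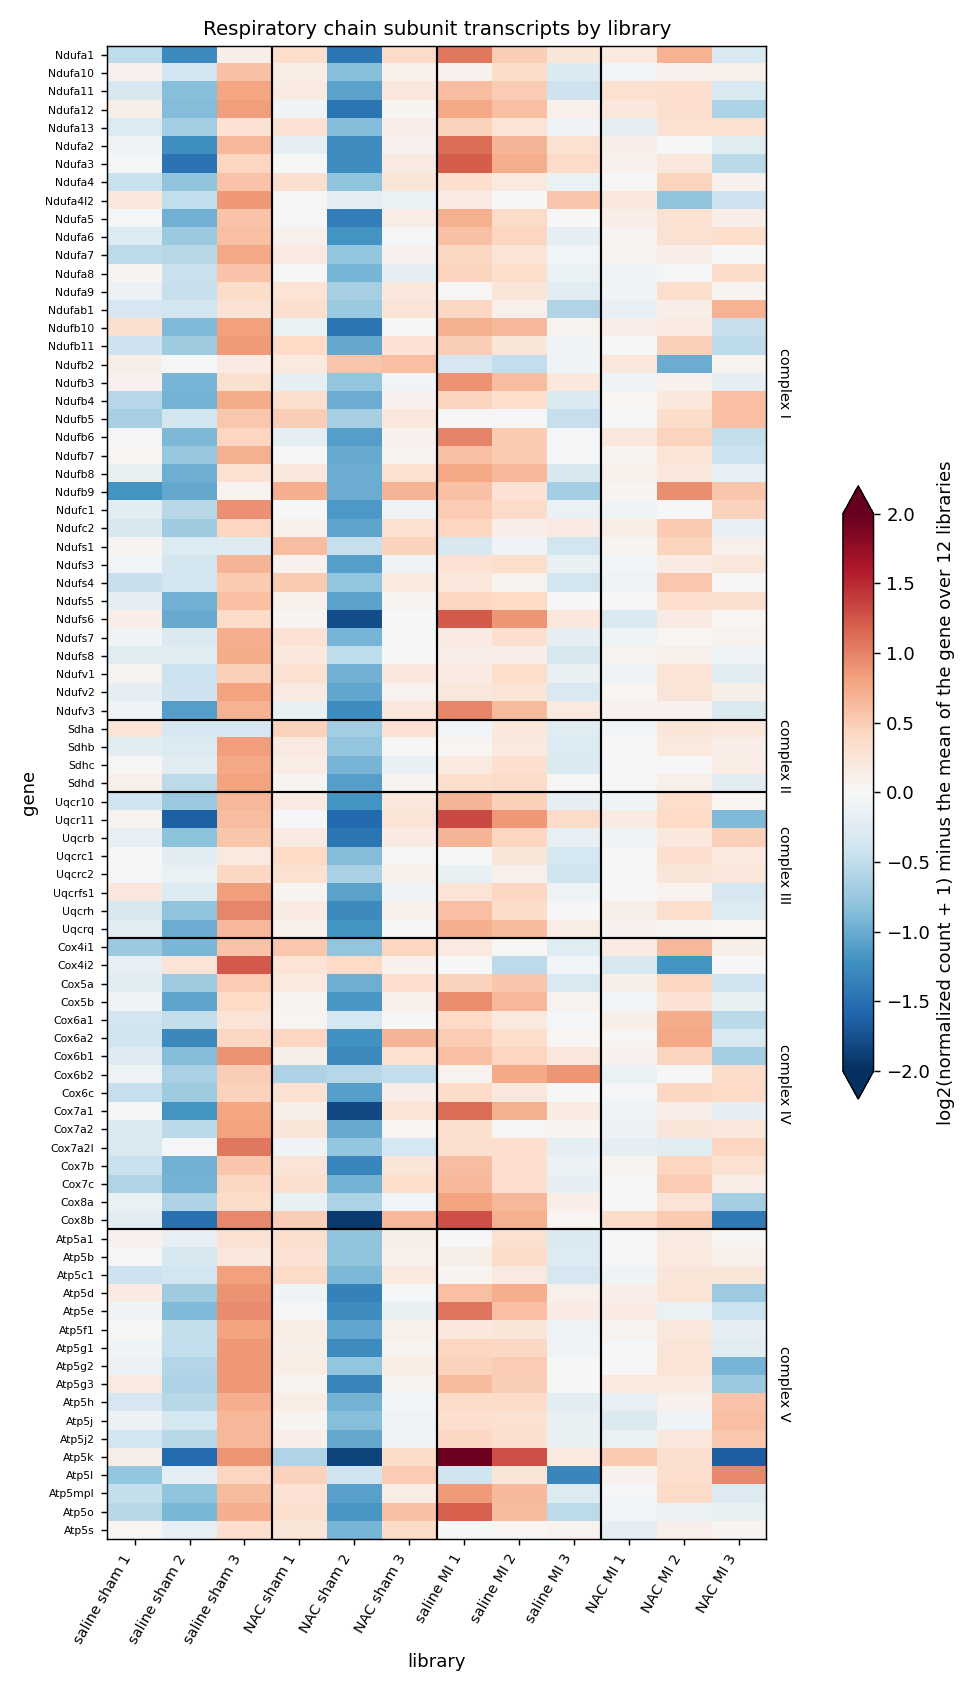
Each row is a tested gene (1 is left out) and each column a library; colour gives the log2 level minus the mean of the gene over 12 libraries, from blue (lower) to red (higher), with black lines between complexes and groups. Most rows are blue in saline sham 2 and NAC sham 2 and red in saline sham 3, and Ndufb2, Ndufs1, Cox4i2, Cox6b2 and Atp5l show other patterns.

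All 5 complexes took part in this. From the lowest to the highest library the mean log2 level of complex I ran from 9.59 to 11.09, that of complex II from 11.63 to 13.02, that of complex III from 10.93 to 12.70, that of complex IV from 10.15 to 11.75 and that of complex V from 10.87 to 12.61, with NAC sham 2 lowest and saline sham 3 highest each time. The 13 protein genes of the mitochondrial genome, which encode the other subunits of the same complexes, had another order: their mean log2 level was lowest in saline sham 1 (12.27) and highest in NAC MI 3 (15.11). Their level in NAC sham 2 (13.55) was close to that in saline sham 2 (13.58). Other lists had extremes in the same libraries but did not follow the block in all of them. NAC sham 2 had the lowest level of cardiomyocyte markers and the highest summed count of the 20 macrophage markers. The mean log2 level of the macrophage markers was 9.32 there and 9.28 in saline MI 1, where the block stood at 11.66. Cardiomyocyte markers stood at 13.77 in saline sham 3 and at 14.41 in NAC sham 1. Saline sham 3 had the highest mean log2 level of 42 ribosomal protein genes (13.23, against 12.12 and 12.09 in saline sham 1 and 2). In NAC sham 2 these genes stood at 11.92, against 12.10 and 12.06 in NAC sham 1 and 3. The part of these lists in the block was not tested.

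**Figure D4:**
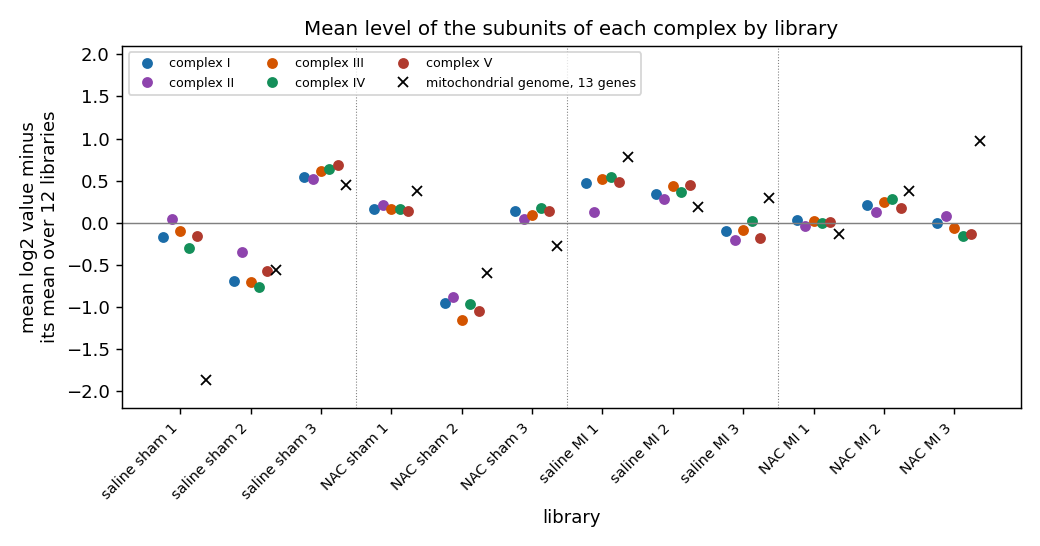
Mean log2 level of the tested genes of each complex, and of 13 mitochondrial genome genes, by library, minus the mean over 12 libraries. The 5 complexes lie close together in most libraries, lowest in NAC sham 2 and highest in saline sham 3, while the mitochondrial genome genes are lowest in saline sham 1.

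The first comparison asked what MI did to these transcripts in pups given saline. None of the 83 genes passed limma's test (adjusted p under 0.05 over 14996 genes), where 0.86% of all genes did. Most stood higher after MI: 64 of 83, with a median log2 difference of 0.36, against a median of -0.01 and 49.1% of genes higher among all genes tested. By complex the median was 0.36 in complex I (31 of 38 higher), 0.00 in complex II (2 of 4), 0.41 in complex III (5 of 8), 0.53 in complex IV (14 of 16) and 0.22 in complex V (12 of 17). At an unadjusted p under 0.05 there were 4 of 83 genes in limma (against 11.4% of all genes), 3 in edgeR and 5 in DESeq2, and edgeR and DESeq2 called 0 of them after adjustment. The median was 0.21 in edgeR and 0.20 in DESeq2.

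The smallest p-values belonged to small accessory subunits of complex I. Ndufa1 (ENSMUSG00000016427, chromosome X, 37187588 to 37191163), a subunit of its membrane arm, stood at 520, 307 and 815 in saline sham and at 1537, 1047 and 878 in saline MI. Every saline MI library lay above every saline sham library, with a log2 difference of 1.15 (SE 0.473, limma adjusted p = 0.376). Ndufa3 (chromosome 7, 3617373 to 3620327) stood at 1037, 376 and 1419 and at 2444, 1741 and 1379, a log2 difference of 1.13 (SE 0.465, limma adjusted p = 0.370), and its groups overlap. Ndufb3 (chromosome 1, 58586384 to 58595964) stood at 623, 307 and 735 and at 1096, 896 and 682, with a log2 difference of 0.75 (SE 0.308, limma adjusted p = 0.370). The lower side was led by Cox4i2 (-0.63), Ndufb2 (-0.39) and Uqcrc2 (-0.23), with limma adjusted p from 0.566 to 0.780. Groups that do not overlap were seen for 2 of 83 genes (Ndufa1 higher, Ndufb2 lower), against 18.6% of all genes tested.

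The median of this comparison rests on single sham libraries. It was 0.72 without saline sham 3 and 0.00 without saline sham 2, while leaving out any of the other 10 libraries gave 0.23 to 0.49. It also went with transcript length. Among the 41 genes with an mRNA of under 727 bases, 39 were higher after MI (median 0.46), and among the 42 longer ones (727 or more) 25 were (median 0.08). All protein-coding genes tested showed the same direction, with a median of 0.37 for the 424 short ones and -0.01 for the 13028 longer ones. Markers of macrophages went with this comparison too, with 2 of 20 called by limma: 20 of 20 stood higher in saline MI, with a summed count of 1159 to 1819 in saline sham and 13436 to 20545 in saline MI. So did those of neutrophils, 15 of 15 higher and 7 called, with sums of 185 to 974 and of 5847 to 6783. Ribosomal protein genes were higher too, 40 of 42, with a median of 0.36 as in the subunits and 0 called. Of other markers, 16 of 20 of cardiomyocytes (median 0.20) and 15 of 16 of fibroblasts (0.55) were higher, with 0 called. Epicardial markers were higher in 12 of 14 (2 called), while 14 of 16 endothelial markers were lower (0 called). The part of length and of these cells and genes in the result was not tested.

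In pups given NAC, the same comparison of MI with sham gave a like direction. None of the 83 genes passed limma's test, where 0.127% of all genes did, and 0 had an unadjusted p under 0.05 in limma (against 9.996% of all genes), edgeR or DESeq2. The median log2 difference was 0.30, and 77 of 83 were higher after MI. By complex it was 0.30 in complexes I and II, 0.35 in complex III and 0.28 in complexes IV and V. On the higher side Ndufa6 (0.62) and Ndufa8 (0.45) of complex I, and on the lower side Ndufb2 (-0.69) and Ndufa4l2 (-0.23), were among the smallest p-values, with limma adjusted p from 0.527 to 0.813. The direction was not stable: without NAC sham 2 the median was -0.07, and without NAC sham 1 it was 0.50. Groups that do not overlap were seen for 2 genes, against 19% of all genes tested. Other lists went with this comparison: 42 of 42 ribosomal protein genes were higher (median 0.48, 0 called), as were 14 of 14 epicardial markers (2 called) and 13 of 15 neutrophil markers (1 called), and 12 of 16 endothelial markers were lower (0 called). Also higher were 16 of 16 fibroblast, 16 of 20 cardiomyocyte, 16 of 20 macrophage and 9 of 9 red cell markers, with 0 called. By length, 39 of the 41 short subunit genes were higher (median 0.36) and 38 of the 42 longer ones (0.28). Among all protein-coding genes the medians were 0.36 for short and -0.01 for longer ones. The part of length and of these lists in the result was not tested.

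Those 2 genes are isoforms of complex IV with patterns unlike the block. Cox6b2 (ENSMUSG00000051811, chromosome 7, 4751792 to 4753094) stood at 80.7, 83.2 and 88.2 in NAC sham and at 114, 125 and 161 in NAC MI, with a log2 difference of 0.64 (SE 0.314, limma adjusted p = 0.518). With saline it stood at 116, 79.4 and 175 after sham and at 131, 212 and 230 after MI. Cox4i2 (ENSMUSG00000009876, chromosome 2, 152754173 to 152765037) went the other way, with 139, 152 and 122 in NAC sham and 91.0, 49.3 and 115 in NAC MI, a log2 difference of -0.76 (SE 0.380, limma adjusted p = 0.520). With saline it stood at 101, 137 and 268 after sham and at 114, 79.5 and 110 after MI. Both were among the lowest of the family, with 1651 and 1492 reads over the 12 libraries. Smooth muscle and pericyte markers were lower after MI as well, 8 of 10 with saline and 8 of 10 with NAC. For MI averaged over treatments limma called 2 of these 10 markers lower and 1 higher. Their part in the level of Cox4i2 was not tested.

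Averaged over both treatments, MI against sham brought the smallest p-values of all comparisons. Of 83 genes, 78 were higher, with a median of 0.32, and 0 passed limma's test, where 2.74% of all genes did. At an unadjusted p under 0.05 there were 6 of 83 genes in limma (against 20.2% of all genes), 3 in edgeR and 5 in DESeq2, with 0 called by edgeR or DESeq2. The median was 0.13 without NAC sham 2 (57 of 83 higher), 0.16 without saline sham 2 and 0.50 without saline sham 3. Cox6b2 had a log2 difference of 0.65 (SE 0.222, limma adjusted p = 0.132), and Cox4i2 one of -0.69 (SE 0.268, limma adjusted p = 0.177). Next on the higher side were Ndufb3 (0.51) and Ndufa1 (0.79), both with limma adjusted p = 0.211. Ndufb2 (-0.54, limma adjusted p = 0.248) and Ndufa4l2 (-0.09, limma adjusted p = 0.872) were the next on the lower side. Without saline sham 3 limma called Cox6b2 as higher after MI (adjusted p = 0.0353), where 5.15% of all genes were called higher.

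The next comparison asked what NAC did in pups with sham surgery. None of the 83 genes passed limma's test, as 0 (0%) of all 14996 genes did, and 0 had an unadjusted p under 0.05 in limma (against 5.89% of all genes) or edgeR and 2 in DESeq2, which called 0 of them. Of 83 genes, 60 were lower with NAC, with a median log2 difference of -0.18. All 8 genes of complex III, 14 of 17 of complex V and 25 of 38 of complex I were lower, and in complex IV 10 of 16. The median was 0.22 without NAC sham 2, 0.16 without saline sham 3 and -0.50 without saline sham 2, so its sign depends on which sham libraries enter. A prefix shared by both treatments occurs in saline sham 1 and 2 and NAC sham 2 only, where the mean log2 level was 11.01 and 10.52 with saline and 10.19 with NAC. Of the 83, only Ndufb2 had groups that do not overlap, higher with NAC, against 9.86% of all genes tested. All 20 macrophage and all 15 neutrophil markers stood higher with NAC after sham. Lower were 40 of 42 ribosomal protein genes, 9 of 9 red cell markers (median -0.93) and 15 of 16 endothelial markers. None of these was called. By length, the median was -0.14 for the 41 subunit genes with short mRNAs and -0.19 for the 42 longer ones. Among all protein-coding genes it was -0.27 for short and -0.004 for longer ones. The part of length and of these lists was not tested.

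The smallest p-values on the lower side were those of Cox7a2l, which ties complexes III and IV into supercomplexes, of Uqcrfs1 and of Sdhc. Cox7a2l (chromosome 17, 83501918 to 83517330) stood at 2678, 3256 and 6901 in saline sham and at 3147, 1938 and 2614 in NAC sham, with a log2 difference of -0.64 (SE 0.328, limma adjusted p = 0.770). Uqcrfs1 had -0.63 and Sdhc -0.50, with the same limma adjusted p = 0.770. Without saline sham 3 the differences were -0.23 for Cox7a2l, -0.34 for Uqcrfs1 and -0.21 for Sdhc. Without NAC sham 2 they were -0.28 for Uqcrfs1 and -0.19 for Sdhc, and without saline sham 3, NAC sham 2 and NAC MI 2 together 0.0088 and 0.097. On the higher side was Ndufb9 (chromosome 15, 58933756 to 58939488), an accessory subunit of complex I, at 254, 287 and 612 in saline sham and 959, 292 and 930 in NAC sham, with a log2 difference of 0.85 (SE 0.479, limma adjusted p = 0.770). NAC sham 1 and 3 lay above all saline sham libraries and NAC sham 2 did not. Ndufb9 is overlapped on the same strand by another annotated gene, Gm49356, and has 1 annotated copy, with 0 reads assigned to either. What this did to the count of Ndufb9 was not tested. Cox4i1 (0.42, limma adjusted p = 0.811) stood at 3938, 3501 and 9748 in saline sham and at 9587, 3799 and 8829 in NAC sham, with its highest sham value in saline sham 3.

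After MI, NAC against saline again gave 0 genes that passed in limma, of 83 and of all genes (0%). At an unadjusted p under 0.05 there were 2 of 83 in limma (against 9.22% of all genes), 1 in edgeR and 3 in DESeq2, and neither edgeR nor DESeq2 called any. Of 83 genes, 61 were lower with NAC, with a median of -0.13 that kept its sign when any single library was left out (-0.28 to -0.04) and with the title prefix as a term (-0.09). The number of genes that were lower was 46 of 83 both with the prefix term and without saline MI 1. Complex IV had 14 of 16 lower (median -0.17), complex III 6 of 8 (-0.24) and complex I 27 of 38 (-0.12). Of the 41 genes with short mRNAs, 5 were higher (median -0.26, against -0.33 for all short protein-coding genes), and of the 42 longer ones 17 were (median -0.05, against -0.01). Ribosomal protein genes, 39 of 42 of them, were lower too, as were 20 of 20 macrophage markers (median -1.33), 14 of 16 endothelial and 8 of 9 red cell markers, while 13 of 14 epicardial markers were higher. None of these was called, and their part in the result was not tested.

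Groups that do not overlap were seen for 9 of 83 genes after MI, against 20.3% of all genes tested. Ndufs1 was higher with NAC, and Ndufa2, Ndufa3, Ndufb3, Ndufs6, Ndufv3, Uqcrq, Cox7a1 and Atp5e were lower. Ndufs6, a zinc-binding accessory subunit of complex I, stood at 2995, 2379 and 1487 in saline MI and 1045, 1437 and 1317 in NAC MI. Atp5e, the epsilon subunit of the rotor of ATP synthase, stood at 8510, 6128 and 4548 and at 4528, 3690 and 3018. In both, saline MI 1 was the highest of the 12 libraries. Saline MI 3 shares its title prefix with NAC MI 1 and 2. There Ndufs6 stood at 1487 with saline and at 1045 and 1437 with NAC. Atp5e stood there at 4548 with saline and at 4528 and 3690 with NAC. The part of the prefix in the levels of these 2 genes was not tested. Cox8a (chromosome 19, 7215153 to 7217616) stood at 5623, 5091 and 3526 and at 3264, 3902 and 2001, with a log2 difference of -0.66 (SE 0.302, limma adjusted p = 0.537). The largest fitted difference on the lower side was that of Atp5k, -1.41 (SE 0.728, limma adjusted p = 0.556), with 3335, 2095 and 980 in saline MI and 1237, 1076 and 274 in NAC MI. It was -0.72 without NAC MI 3. Ndufb3 had -0.64 (limma adjusted p = 0.547), and on the higher side Ndufb5, an accessory subunit of complex I, had 0.47 (limma adjusted p = 0.626).

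Ndufs1 (ENSMUSG00000025968, chromosome 1, 63143596 to 63176833) stood apart from the other core genes of complex I. It stood at 3963, 3181 and 3217 in saline sham, at 5872, 2797 and 5286 in NAC sham, at 3067, 3650 and 2962 in saline MI and at 3992, 5213 and 4107 in NAC MI. All NAC MI libraries lay above all saline MI libraries, and NAC sham 1 and 3 above all saline sham libraries. Averaged over both surgeries, NAC against saline had a log2 difference of 0.41 (SE 0.179, limma adjusted p = 0.296). Its range was 0.31 to 0.58 with each library left out, and without NAC sham 2 limma called it as higher with NAC (adjusted p = 0.0490), where 1.13% of all genes were called higher. Atp5l (ENSMUSG00000038717, chromosome 9, 44912557 to 44920742), subunit g of ATP synthase, went in the same direction, with 299, 468 and 159 in saline MI and 419, 498 and 772 in NAC MI. Its log2 difference was 0.95 after MI (SE 0.411, limma adjusted p = 0.529) and 0.66 averaged over surgeries (SE 0.290, limma adjusted p = 0.299). With its 9 annotated copies its reads may be split between loci.

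Over both surgeries together, 63 of 83 genes were lower with NAC, with a median of -0.16, and 0 passed limma's test, as 0 (0%) of all genes did. At an unadjusted p under 0.05 there were 3 of 83 in limma (Ndufs1, Atp5l and Cox6b2, against 15.5% of all genes), 3 in edgeR and 7 in DESeq2, and both called 0. Cox6b2 was lower with NAC by a log2 difference of -0.49 (SE 0.222, limma adjusted p = 0.316), Atp5e by -0.60 (limma adjusted p = 0.348) and Uqcrfs1 by -0.46 (limma adjusted p = 0.353), while Ndufb9 was higher (0.64, limma adjusted p = 0.369). The median was 0.04 without NAC sham 2 and -0.02 without saline sham 3. The interaction, which asks whether the MI difference depends on NAC, had a median of 0.02 over the 83 genes (43 above 0), with 0 genes that passed in limma, of 83 and of all 14996 (0%). That median was -0.38 without NAC sham 2 (11 above 0), -0.34 without saline sham 3 (14 above 0), 0.28 without saline sham 2 and -0.01 when libraries were scaled by their nuclear reads outside globin. Without saline sham 3, NAC sham 2 and NAC MI 2 together it was -0.81, with 3 genes above 0. At an unadjusted p under 0.05 limma (2.03% of all genes), edgeR and DESeq2 each found 0 of 83, and DESeq2 called 0 of 83. The smallest interaction p-values below 0 were those of Ndufa3 (-0.86, SE 0.658), Cox8a (-0.52, SE 0.427) and Ndufb3 (-0.47, SE 0.435), and above 0 those of Uqcrc2 (0.46, SE 0.362), Sdhc (0.45, SE 0.428) and Cox7a2l (0.49, SE 0.463). The last of these turned to -0.23 with quality weights, and without the 3 libraries Uqcrc2 turned to -0.042 and Sdhc to -0.13.

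**Figure D5:**
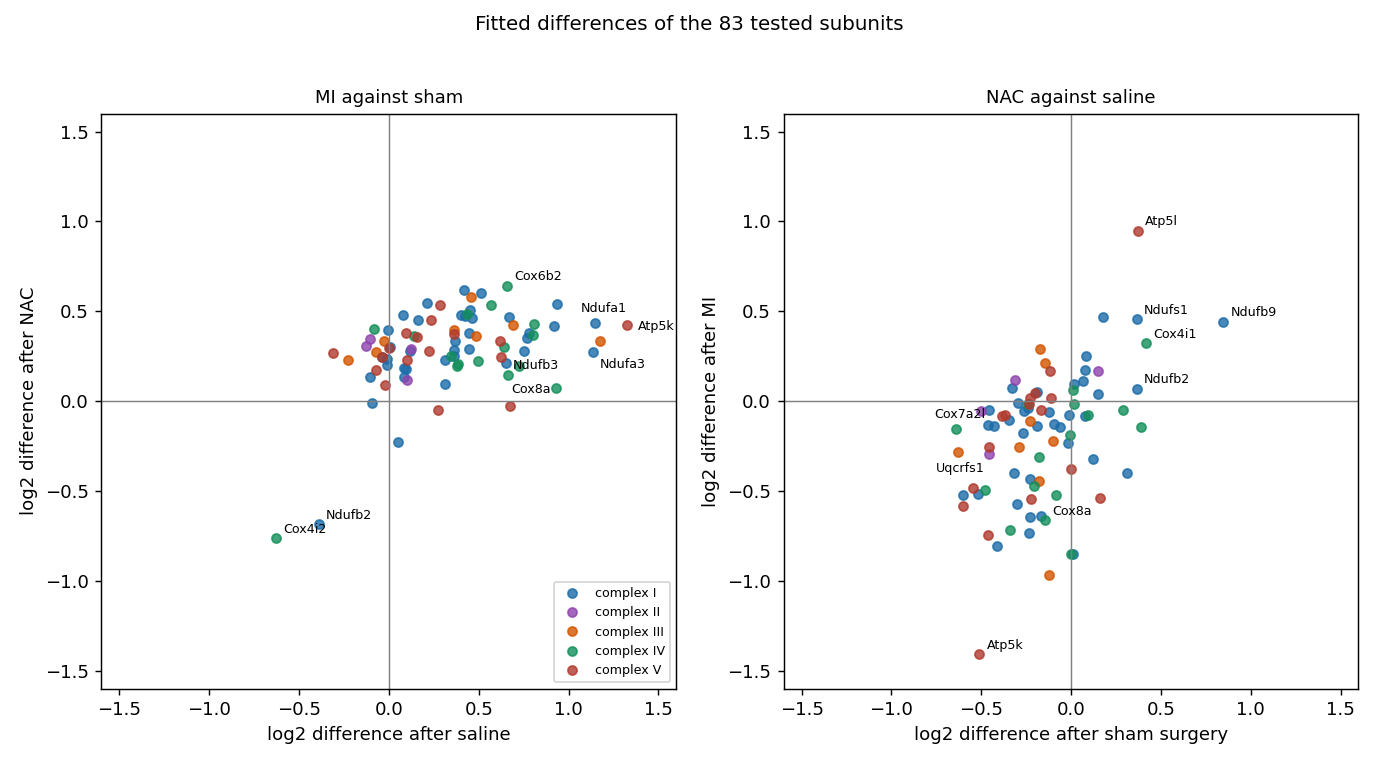
Fitted log2 differences of the 83 tested genes, coloured by complex: left, MI against sham after saline (x) and after NAC (y); right, NAC against saline after sham surgery (x) and after MI (y). Most genes lie above 0 on both axes at left, with Cox4i2 and Ndufb2 below 0 on both, and none passed the test in any comparison.

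Ndufb2 (ENSMUSG00000002416, chromosome 6, 39592574 to 39603382) had the pattern least like the block. It stood at 58.7, 52.6 and 60.7 in saline sham, at 62.0, 79.7 and 82.0 in NAC sham, at 42.6, 37.9 and 50.7 in saline MI and at 62.9, 26.5 and 56.5 in NAC MI. It was thus high in NAC sham 2, where most subunits were lowest, and all saline MI libraries lay below all saline sham libraries. Its reads number 700 over all libraries. The annotation has another gene, Gm42420, on the same strand over this gene, with 0 reads in all libraries. What this overlap did to the count was not tested.

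Giving less weight to libraries far from their group, or leaving out saline sham 3, NAC sham 2 and NAC MI 2 together, brought out calls. With limma's quality weights (0.268 for saline sham 3 and 0.250 for NAC sham 2, up to 4.70 for saline MI 1), 34 of 83 genes were called higher after MI with saline, where 10.1% of all genes were called higher. Without the 3 libraries 31 were, where 6.74% of all genes were, and 28 genes were in both lists (82.4% of the first and 90.3% of the second). The lists are not independent, because the lowest weights fell on the same 3 libraries (0.451 for NAC MI 2). Their overlap is therefore not a separate test of these calls. The 28 include Ndufa1, Ndufa3, Ndufb3, Ndufs6, Cox4i1, Cox5b, Cox6a2, Cox7a1, Cox8a, Uqcrq, Uqcr11 and Atp5e. No gene of complex II and no catalytic core gene of complex I, III or V is in either list. Saline sham 3, left out or given little weight here, was the highest library for 41 of 83 genes and had the highest mean level of the block. Reducing its part lowers the fitted saline sham level of the block. Without the 3 libraries, saline sham 2 is 1 of 2 remaining sham libraries with saline, and it had the lower levels of this block.

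These settings moved the other comparisons as well. For MI against sham averaged over treatments the weights called 11 genes higher (14.4% of all genes) and the smaller set of libraries 1, Cox6b2 (8.32%). For NAC against saline after sham the weights called 2 genes higher with NAC, Cox4i1 and Ndufb9 (2.06% of all genes), and the smaller set 6 (1.83%), the same 2 with Cox6a2, Cox7c, Ndufa1 and Ndufa4. In the smaller set both saline sham libraries have 1 title prefix and both NAC sham libraries have none, so NAC and prefix cannot be told apart there. After MI the weights called 3 genes lower with NAC, Cox8a, Ndufb3 and Ndufs6 (1.82%). Averaged over surgeries they called 4 genes higher with NAC, Atp5l, Cox4i1, Ndufb9 and Ndufs1 (6.98%), and the smaller set called Cox4i1 and Ndufb9 (1.39%). The median for MI against sham moved as well: in pups given NAC it was -0.03 with the weights and -0.18 with the smaller set, and in those given saline 0.63 and 0.72.

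Other genes of mitochondrial respiration were compared from lists of known function, and none of them passed limma's test in any comparison. The 13 protein genes of the mitochondrial genome were all higher after MI with saline (median log2 1.07) and with NAC (0.53). Their mean log2 level differed by 1.08 with saline, but by 0.48 without saline sham 1 and 1.63 without saline sham 3. With NAC it differed by 0.57, and by 0.29 without NAC MI 3 and 0.36 without NAC sham 2. After saline mt-Atp6 and mt-Atp8, which encode subunits of complex V and overlap each other, each had a log2 difference of 1.07 (limma adjusted p = 0.478 and 0.473). Of 47 assembly factors, 33 were higher after MI with saline (median 0.09) and 43 with NAC (0.21), and 39 were lower with NAC after sham (median -0.26). Higd1a, which binds complex IV and is induced by low oxygen, came nearest to passing, with a log2 difference of 0.62 for MI averaged over treatments (limma adjusted p = 0.0877).

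Carriers and enzymes that feed the chain showed less. Of 17 such genes, 7 were higher after MI with saline (median -0.05) and 13 with NAC (0.18). Gpd2, which passes electrons from glycerol phosphate to ubiquinone, had a log2 difference of -0.65 after MI with saline (limma adjusted p = 0.480), and Cycs, cytochrome c, one of 0.58 with NAC (limma adjusted p = 0.567). Of 18 genes of the citric acid cycle, 3 were higher after MI with saline (median -0.11) and 17 with NAC (0.14), from Sucla2 at -0.23 with saline to Suclg1 at 0.29 with NAC.

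Of 18 regulators of mitochondrial genes, 13 were lower after MI with saline (median -0.13) and 12 with NAC (-0.07). Gabpa, a subunit of the ETS factor GABP, had the smallest p of these for MI averaged over treatments, at -0.45 (limma adjusted p = 0.120). Its partner Gabpb1 had -0.51 after MI with saline (limma adjusted p = 0.343). With NAC, averaged over surgeries, Lrpprc, which stabilises mitochondrial mRNAs, had 0.69 (limma adjusted p = 0.198) and Esrra, a receptor that binds the ERR letters, -0.60 (limma adjusted p = 0.327).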

How the data were processed

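Poly-A RNA of isolated newborn cardiomyocytes was sequenced in 12 libraries, 3 per group. The deposited table holds signal: read counts per gene scaled by the authors with 1 size factor for each library. Undoing that factor gave whole reads (tolerance 0.01) for 100% of values. STAR 2.7.10a, DESeq2 1.44.0 and mm10 are named in the submitters' processing notes; the counter, annotation and strand setting are not given in the sources used here. Symbols, types and positions came from GENCODE on GRCm38 (52079 of 52336 identifiers matched). Length was that of the shortest principal transcript.

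Values were analysed as log2(value + 1) in limma 3.58.1 (R 4.3.3), with a trended prior, 1 model of 4 group means over 12 libraries, a mean of at least 10, two-sided tests and Benjamini-Hochberg adjustment over 14996 genes, in 7 comparisons. edgeR 4.0.16 and DESeq2 1.42.0 on recovered reads were alternatives, with other pseudocounts, filters, scalings, weights and left-out libraries. The fitting code was tested on simulated data. Members and gene lists were chosen with earlier results of these data known. Genes named with differences are those that passed and, per comparison, the 3 smallest p-values each way; levels are given for core subunits, isoform families, the highest and lowest per complex, and up to 3 genes per list. Ndufa2, Ndufv3, Ndufs6, Uqcrq, Atp5e, Cox7a1, Cox8b, Atp5k, Uqcr11 and the genes called under alternatives were also named for their values. Values of 1 gene are not reported here.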

Additional observations from a re-analysis of the deposited data

How the results depend on the processing

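No named subunit gene crossed the test's threshold under edgeR, DESeq2, another pseudocount, filter or scaling. Calls of the subunit genes appeared with quality weights or left-out libraries. The named genes of the other lists are not covered by this check. Among medians, 933 of 954 alternatives moved by less than the pooled SD within groups. For all 83 genes that SD was 0.488, above the largest median of the main fit (0.36). A change of sign can thus count as unmoved: for NAC after sham the median was -0.18, and 0.22 without NAC sham 2. All 120 alternatives of the isoform ratios, as group means, moved by less than the SD of 3 libraries. With 1 library left out (72 of them) no other outcome was possible, and these checks do not cover differences between groups. With the 3 libraries left out together (saline sham 3, NAC sham 2 and NAC MI 2), respiratory genes called numbered 31 for MI after saline, 1 for MI averaged, 6 for NAC after sham and 2 for NAC averaged, and with quality weights 34, 11, 2 and 4, and 3 for NAC after MI. With 1 library left out they numbered 0 to 1 for MI averaged and 0 to 1 for NAC averaged. The median for NAC after sham was 0.54 without the 3 libraries, and that of the interaction was -0.81, or -0.60 with weights. By complex, from I to V, the medians without the 3 libraries were 0.56, 0.30, 0.66, 0.76 and 0.40 for NAC after sham and -0.82, -0.28, -0.93, -1.13 and -0.58 for the interaction. With weights those of the interaction were -0.60, -0.18, -0.77, -0.86 and -0.49, and that of complex II for NAC after sham 0.066. For MI after NAC, complexes II and IV stood at -0.10 and -0.26 without the 3 libraries. The sign turned for Ndufa4l2 (0.064 with weights for MI after NAC and 0.061 for MI averaged, 0.18 for the latter without the 3 libraries, and -0.50 to 0.014 and -0.26 to 0.080 with 1 library left out). It also turned without the 3 libraries for Uqcrfs1 (0.0088) and Sdhc (0.10) under NAC after sham, and for the interaction of Uqcrc2 (-0.042, and -0.00036 with weights), Sdhc (-0.13, and -0.084 with weights) and Cox7a2l (-0.23 with weights). All genes called by limma numbered 129 for MI after saline, 19 for MI after NAC, 411 for MI averaged and 0 in the others. DESeq2 called 464, 241 and 1218, and 53 for NAC after sham, 11 for NAC after MI, 437 for NAC averaged and 1 for the interaction. Without the 3 libraries the counts were 1807, 575, 2183, 418, 0, 328 and 6 in that order, and with weights 2915, 806, 4187, 421, 685, 2021 and 0. With the libraries of the comparison alone they were 507 for MI after saline and 1 for MI after NAC, where a pseudocount of 8 gave 43 and a mean of at least 50 gave 10. With 1 library left out the counts ran from 15 to 326 for MI after saline, 8 to 67 for MI after NAC, 133 to 1563 for MI averaged, 0 to 80 for NAC after sham, 0 to 4 for NAC after MI, 0 to 250 for NAC averaged and 0 to 4 for the interaction. The cause of these shifts was not tested. Without the 3 libraries, 3 of the groups kept 2 libraries, which limits their precision.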
